A study of Mus musculus with 4 samples.

Results

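The histone cluster genes of the mouse are the genes for the linker histone H1 and the core histones H2A, H2B, H3 and H4 that lie together at a few chromosomal sites. They were taken as every row of the deposited count table whose gene symbol begins with Hist1h, Hist2h, Hist3h or Hist4h, which gave 68 of 23420 genes. RNA had been sequenced from MK1 and MK2, a pair of mouse keratinocyte lines, in 2 biological replicates per line, and the labels name no treatment. Keratinocytes are the epithelial cells of the epidermis, where p63, the transcription factor in the title of the series, maintains the tissue. The labels give neither genotype, strain, sex, age, passage nor the origin of either line, so each line stands for itself alone, and p-values measure the spread between cultures of these lines. Every difference is given as MK2 against MK1.

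Nucleosomes wrap DNA around a core of H2A, H2B, H3 and H4, and H1 binds the linker DNA where it enters and leaves. The cluster genes supply most of this protein while DNA is being copied, and their messages are unusual in that they usually end just after a conserved stem-loop, bound by the protein SLBP, and carry no poly(A) tail. Some cluster genes can also give longer, polyadenylated messages, which are described in cells that have left the cell cycle.

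Of the 68 genes, 54 belonged to the Hist1 cluster (mm10 chromosome 13, 21715763 to 23934851) and 10 to Hist2 (chromosome 3, 96219916 to 96270192). Another 3 belonged to Hist3 (chromosome 11, 58948911 to 58956674), and Hist4 was the single gene Hist4h4 (chromosome 6, 136801553 to 136804431). By type there were 6 genes for H1, 18 for H2A, 19 for H2B, 12 for H3 and 13 for H4. Hist3h2bb-ps, counted among the 19, is annotated as a processed pseudogene. They were short, with a median counted length of 479 bases against 2247 bases for all genes in the table, and 58 of the 68 had a single exon.

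The stem-loop that ends these messages is shown first because the annotated transcripts differ in how far they run past it. It was searched for as GGNNCTTTTNANNNCC, on the sense strand, with the first 6 bases the reverse complement of the last 6, in the GENCODE M21 transcripts. A match was found in a transcript of 43 of the 68 genes, and in 57 of all 141767 transcripts scanned (0.0402%). There were 6 distinct sequences. The commonest, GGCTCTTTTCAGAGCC, was found in 25 members of types H1, H2A, H2B and H3, whereas the 11 H4 genes with a match all carried another form, such as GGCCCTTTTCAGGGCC in 7 of them. The stem-loops of 6 genes on which the results turn follow, with the stem-loop in capitals and 5 flanking bases on each side.
Hist1h1c: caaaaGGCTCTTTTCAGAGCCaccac
Hist3h2a: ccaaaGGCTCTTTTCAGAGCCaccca
Hist1h2bj: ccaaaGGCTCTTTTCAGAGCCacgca
Hist1h3c: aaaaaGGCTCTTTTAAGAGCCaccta
Hist1h4i: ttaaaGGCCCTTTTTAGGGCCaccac
Hist4h4: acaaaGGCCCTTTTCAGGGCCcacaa
The annotated transcript of Hist1h2bj stopped 23 bases after the stem-loop and that of Hist1h3c 74 bases after it. Those of Hist1h4i, Hist1h1c, Hist3h2a and Hist4h4 ran on for 330, 840, 1643 and 2445 bases. The transcripts of Hist1h2bc and Hist2h2be, which also matter below, held no match, which says only that these letters were not in those annotated transcripts.

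Upstream of the genes, 55 members had a RefSeq promoter entry (GRCm38.p6) at their annotated start, and the 250 bases before the start were searched on both strands for 5 motifs. The octamer ATTTGCAT, known from H2B promoters, was in 6 of 14 H2B and 7 of 14 H2A windows and in no window of the other types (13 of 55 members, against 1.60% of 32851 promoters). Windows of neighbouring H2A and H2B genes on opposite strands can overlap, so the same site can count for both genes. The octamer of Hist1h2ah and Hist1h2bk is such a site. The CCAAT box was in 45 of 55 (33.8% of all promoters) and TATAAA in 28 of 55 (12.4%). The H1 motif AAACACA was in 5 of 6 H1 windows (6.25% of all promoters), and GGTCCG, the core of an H4 promoter element, in 8 of 11 H4 windows (6.72%). The promoters of 4 members whose values are compared below are printed with every match to the 5 motifs in capitals, in either orientation.
Hist1h2bj, chr13:22042948-22043197, plus strand: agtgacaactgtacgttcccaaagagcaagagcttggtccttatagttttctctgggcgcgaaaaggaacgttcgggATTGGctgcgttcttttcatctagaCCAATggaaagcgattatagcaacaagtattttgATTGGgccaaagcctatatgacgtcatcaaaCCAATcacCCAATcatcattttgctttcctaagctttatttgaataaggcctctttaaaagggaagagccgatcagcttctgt
Hist1h2bk, chr13:22035571-22035820, plus strand: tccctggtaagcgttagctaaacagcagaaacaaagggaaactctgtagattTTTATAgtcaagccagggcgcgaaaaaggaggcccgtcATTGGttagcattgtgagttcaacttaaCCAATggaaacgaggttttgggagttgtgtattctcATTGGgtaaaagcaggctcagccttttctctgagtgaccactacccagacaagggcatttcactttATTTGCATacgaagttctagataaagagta
Hist1h1c, chr13:23738557-23738806, plus strand: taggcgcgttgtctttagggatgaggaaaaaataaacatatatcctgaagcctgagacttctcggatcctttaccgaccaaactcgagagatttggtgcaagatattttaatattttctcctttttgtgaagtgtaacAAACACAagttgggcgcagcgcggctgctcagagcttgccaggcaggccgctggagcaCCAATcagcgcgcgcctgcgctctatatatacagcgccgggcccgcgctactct
Hist1h4i, chr13:22041363-22041612, minus strand: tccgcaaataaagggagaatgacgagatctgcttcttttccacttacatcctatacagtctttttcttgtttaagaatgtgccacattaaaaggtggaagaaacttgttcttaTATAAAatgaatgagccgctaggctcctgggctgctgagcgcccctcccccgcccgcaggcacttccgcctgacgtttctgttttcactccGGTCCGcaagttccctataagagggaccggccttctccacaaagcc
The window of Hist1h2bj held the CCAAT box and none of the other 4 motifs, and that of Hist1h2bk held the octamer, the CCAAT box and TATAAA. Hist1h1c had the H1 motif and the CCAAT box, and Hist1h4i had TATAAA and GGTCCG. These matches describe the letters and are not evidence of binding.

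Libraries held 25237391 to 30261111 counts, and among 12479 genes tested in all, 25.9% were called higher in MK2 and 28.6% lower. Levels are CPM, counts scaled to a common library size with TMM, or TPM, which also divides by counted length, where genes are compared with each other, and calls are adjusted p under 0.05 in edgeR's quasi-likelihood test. Basal keratinocyte markers summed to 19234 to 23440 CPM in every library, most of it Krt5 and Krt14, which were not called. Among the others, Itga6 was called higher and Col17a1 and Perp lower. Krt15 stood at 4.77 and 4.47 CPM in MK1 and at 27.9 and 0.247 in MK2, and was not called. Leukocyte markers summed to 29.9 and 29.1 CPM in the MK1 cultures and to 0.318 and 0.176 in the MK2 cultures, with Cd74 alone at 17.9 and 17.7 in MK1. All 6 of the 9 leukocyte markers that were tested were called lower in MK2, and their part in the histone values was not tested. Fibroblast markers summed to 3.95 and 3.35 CPM in MK1 and 1.03 and 1.41 in MK2, with Dcn and Lum at 0 and Pdgfra called lower. Endothelial markers summed to 17.8 and 14.9 CPM in MK1 and 25.4 and 27.4 in MK2, nearly all of it Kdr, which was called higher, with Cdh5 at 0. The part of these markers in the histone values was not tested either. Melanocyte markers summed to 2.66 to 3.28 CPM and male germ cell markers to 0.423 to 0.670. Since RNA came from whole cultures, fewer cells making a message and less message per cell cannot be told apart.

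Histone cluster genes drew very few reads in all 4 cultures. The 68 genes together drew 1124 and 996 counts in MK1 and 677 and 1055 in MK2, which was 0.00371%, 0.00373%, 0.00268% and 0.00369% of each library. Only 7 of the genes reached a mean of 1 CPM in either line. The library kit (Illumina TruSeq RNA, from total RNA) is named in the labels without saying how message was selected, and the bearing of that step on genes whose messages mostly lack a poly(A) tail was not tested. Of the 68 genes, 11 had no count in any library, 39 had 1 to 19 counts over all 4, and 18 had 20 or more. A count of 0 allows up to 3 counts, between 0.0991 and 0.119 CPM per library, for counting error only. The 4 genes Hist3h2a, Hist1h1c, Hist1h2bc and Hist1h4i held 73.7% of all member counts.

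Many of these genes are close copies of one another, which limits what the counts can say about any single one. Over the members' transcripts, a median of 53.6% of 50-base windows were found in no other gene outside the same locus, 30 genes had under 50% such windows, and Hist1h2bq and Hist2h2aa2 had none. Counting used no option for reads with several alignments or for overlapping genes, per the file header. Of the 11 genes at 0, 7 overlapped another gene of the table and 8 had under 50% unique windows, so a 0 there is uncertain. Hist1h2bj had 40.6% unique windows, Hist1h2bk 25.8% and Hist1h2ai 9.88%. Hist3h2a had 98.0%, Hist2h2be 100% and Hist1h1c 91.5%.

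Of the 68 genes, 10 had enough reads to be tested, and 2 were called higher in MK2 (Hist1h2bj and Hist1h3c), 1 lower (Hist2h2be) and 7 neither. Among all tested genes 54.6% were called in either direction, and the share of members called, 3 of 10, was not above it. The median difference of the 10 was -0.25 (log2), against -0.01 for all tested genes. Hist1h2bj and Hist1h3c passed the read filter through MK2 alone and so had to differ, and the count of 2 supports nothing about the members. With every gene of at least 1 count tested, 57 members were included, of which 7 were called higher and 3 lower, against 20.2% and 22.9% of 16776 genes. The 7 were Hist1h2bj, Hist1h3c, Hist1h2ai, Hist1h2bk, Hist1h4d, Hist1h2bm and Hist1h2ak, and the 3 were Hist1h1c, Hist2h2be and Hist1h2ac, which had 16 and 6 counts in MK1 and 1 and 3 in MK2. The last of the 3 and Hist1h2bm and Hist1h2ak are named because of their values. The median of those 57 was 0.66, so the sign of the median depended on which low-count genes were included.

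The members called also depended on single libraries. Without MK1 replicate 1, 1 member was called higher and 1 lower, against 12.1% and 17.3% of tested genes. Without MK1 replicate 2 it was 1 and 0 (14.7% and 19.5%), without MK2 replicate 1 it was 2 and 1 (24.0% and 26.9%), and without MK2 replicate 2 it was 6 and 4 (25.3% and 28.5%). DESeq2 called 1 higher and 1 lower (21.8% and 23.8%). Beyond a log2 difference of 1, edgeR's glmTreat called 0 and 0 (3.25% and 10.1%), with 2 and 0 at an unadjusted p under 0.05.

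**Figure D1:**
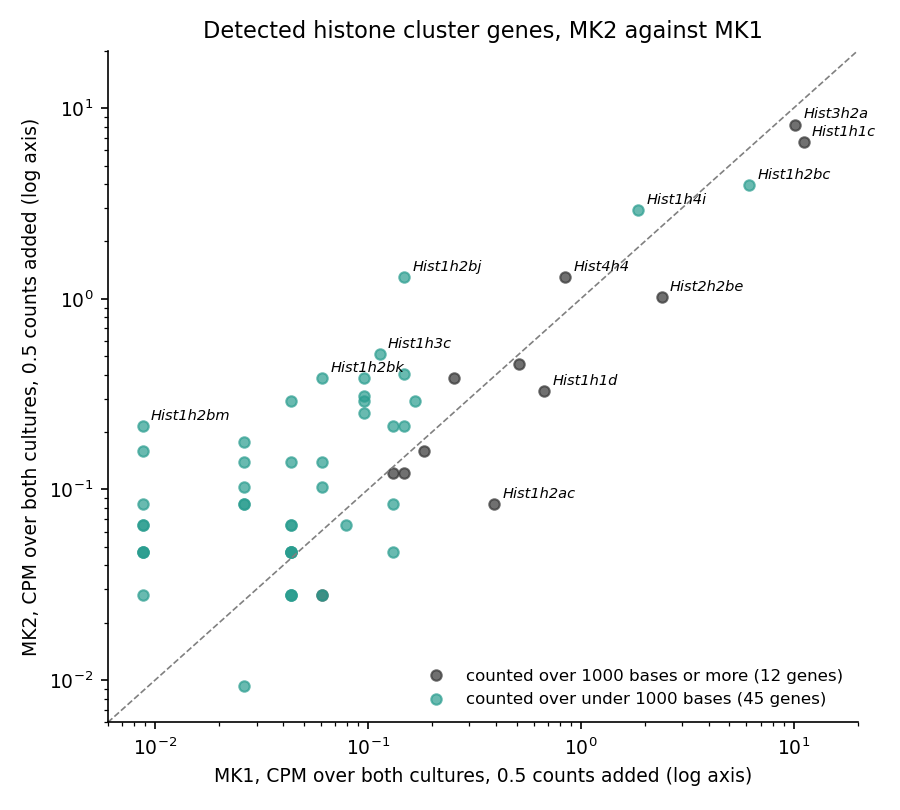
CPM over both MK2 cultures (vertical log axis) against CPM over both MK1 cultures (horizontal log axis) for the 57 histone cluster genes with a count, with 0.5 counts added so that genes at 0 can be drawn, and with colour marking a counted length of 1000 bases or more. Hist1h1c and Hist1h2bc lie below the dashed line of equal levels, and Hist1h2bj, Hist1h3c and Hist1h2bm lie above it.

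Among the linker histones, Hist1h1c was the most read gene, and its level ran lower in MK2 without passing the test. Hist1h1c, a widely expressed H1 subtype (chromosome 13, 23738807 to 23740367, plus strand, 1 exon), drew 342 and 295 counts in MK1 and 100 and 255 in MK2. That was 11.3 and 11.0 CPM against 3.97 and 8.99, or 15.3, 14.6, 5.14 and 11.4 TPM. Both MK2 cultures lay below both MK1 cultures, and MK2 replicate 1 was far below the other 3. Means were 11.1 ± 0.186 and 6.48 ± 3.55 CPM (SD over 2 cultures per line, here and below), and the difference was -0.77 (log2, SE 0.34, adjusted p = 0.0977 by edgeR's quasi-likelihood test). Without MK2 replicate 2, where the remaining MK2 culture is assumed to vary like the MK1 pair, it was -1.48 (adjusted p = 7.55e-04), and without MK2 replicate 1 it was -0.30 (0.199), so the size of the difference rested on which MK2 culture was kept.

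The other linker genes were read little. Hist1h1d had 25 and 13 counts in MK1 and 5 and 12 in MK2, a difference of -1.05 (log2, SE 0.49, adjusted p = 0.113 by edgeR's quasi-likelihood test). Hist1h1t, the testis-type H1, had 0 and 2 counts in MK1 and 1 and 0 in MK2. All 6 H1 genes summed to 12.6 and 11.8 CPM in MK1 and 5.13 and 10.02 in MK2. Their summed counts gave a ratio of 0.631 (95% interval 0.557 to 0.714, counting error only), and Hist1h1c made up 89.1% of those counts. Without it the log2 ratio of the summed CPM was 0.0018, which does not show the other genes unchanged. Hist1h1d was lower in both MK2 cultures, with 38 counts in MK1 and 17 in MK2. Hist1h1e, Hist1h1a and Hist1h1b went the other way, with 14, 1 and 8 counts in MK1 and 20, 9 and 11 in MK2.

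H2A was led by Hist3h2a, whose levels overlapped between the lines. Hist3h2a (chromosome 11, 58954685 to 58956674, plus strand, 1 exon) codes for an H2A of the small Hist3 cluster and had 329 and 254 counts in MK1 and 156 and 282 in MK2. Its level was 11.5 and 9.83 TPM in MK1 and 6.29 and 9.90 in MK2, so MK2 replicate 2 lay between the MK1 cultures. The difference was -0.33 (log2, SE 0.24, adjusted p = 0.293 by edgeR's quasi-likelihood test). Without MK2 replicate 2 it was -0.71 (adjusted p = 0.0215), and without MK2 replicate 1 it was -0.02 (0.925).

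The remaining H2A genes had few counts, most of them more in MK2. Hist1h2ai had 3 and 2 counts in MK1 and 11 and 9 in MK2 (0.531, 0.392, 2.24 and 1.60 TPM). Hist1h2ag had 3 and 5 counts in MK1 and 15 and 6 in MK2 (0.442, 0.814, 2.54 and 0.886 TPM). Neither reached the read filter, and both had MK2 cultures above the MK1 cultures. All H2A genes summed to 11.9 and 10.2 CPM in MK1 and 8.50 and 11.5 in MK2, a ratio of 0.907 (0.807 to 1.02). Without Hist3h2a, 86.7% of the H2A counts, the log2 ratio of the sum was 1.05 in the other direction. The testis-type Hist1h2aa had 1 and 0 counts in MK1 and 3 and 2 in MK2, and Hist1h2ba, its H2B partner, had none.

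The H2B genes held both of the members called at 1 CPM or more, in opposite directions. Hist1h2bj (chromosome 13, 22043230 to 22043610, plus strand, 1 exon) had 8 and 0 counts in MK1 and 30 and 39 in MK2. Its level was 1.46 and 0 TPM against 6.31 and 7.15, and the groups did not overlap. Means were 0.132 ± 0.186 and 1.28 ± 0.130 CPM (log2 difference 3.17, SE 0.73, adjusted p = 0.0102 by edgeR's quasi-likelihood test). The gene was tested only because its MK2 counts passed the read filter, so this p is a description and no support for a rise.

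Hist2h2be (chromosome 3, 96221121 to 96223738, plus strand, 1 exon), an H2B of the Hist2 cluster with a counted length of 2618 bases, went the other way. It had 63 and 74 counts in MK1 and 23 and 31 in MK2, or 1.68, 2.18, 0.705 and 0.827 TPM. Both MK2 cultures lay below both MK1 cultures, and it fell from 2.41 ± 0.483 to 1.00 ± 0.127 CPM (log2 difference -1.26, SE 0.29, adjusted p = 0.0102 by edgeR's quasi-likelihood test). The call was lost without MK1 replicate 2 (adjusted p = 0.0923).

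Hist1h2bc, the member with the highest TPM, stood apart in a single culture. It has 2 exon intervals (chromosome 13, 23684199 to 23692480, plus strand) and had 179 and 175 counts in MK1 and 46 and 164 in MK2. Its level was 17.1, 18.5, 5.07 and 15.7 TPM, so MK2 replicate 1 was far below the other 3 cultures. The difference was -0.69 (log2, SE 0.46, adjusted p = 0.237 by edgeR's quasi-likelihood test), -1.76 without MK2 replicate 2 (adjusted p = 0.00118) and -0.09 without MK2 replicate 1 (0.743). Among the other H2B genes, Hist1h2bk had 2 and 1 counts in MK1 and 10 and 10 in MK2 (0.365, 0.202, 2.10 and 1.83 TPM). All H2B genes summed to 8.59 and 10.1 CPM in MK1 and 5.44 and 9.38 in MK2, a ratio of 0.812 (0.711 to 0.926). Hist1h2bc made up 60.4% of those counts, and without it the log2 ratio of the summed CPM was 0.21, in the other direction.

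H3 and H4 genes summed to more in both MK2 cultures. Hist1h3c (chromosome 13, 23745042 to 23745521, minus strand, 1 exon), a gene for the replication-coupled H3, had 3 and 3 counts in MK1 and 13 and 14 in MK2, or 0.435, 0.482, 2.17 and 2.04 TPM. The groups did not overlap, and Hist1h3c stood at 0.105 ± 0.00922 CPM in MK1 and 0.505 ± 0.0161 in MK2 (log2 difference 2.22, SE 0.47, adjusted p = 0.00751 by edgeR's quasi-likelihood test). It too was tested only because its MK2 counts passed the read filter, which limits that p in the same way. The call was lost without MK1 replicate 1 (adjusted p = 0.0940), without MK1 replicate 2 (0.0725) and in DESeq2 (0.113). Hist2h3c1 had 18 and 11 counts in MK1 and 9 and 15 in MK2, a difference of -0.17 (log2, SE 0.41, adjusted p = 0.741 by edgeR's quasi-likelihood test). The 12 H3 genes summed to 1.15 and 1.27 CPM in MK1 and 1.79 and 2.01 in MK2, a ratio of 1.58 (1.15 to 2.18). Hist1h3c gave 6 of their 69 counts in MK1 and 27 of 102 in MK2, a large part of that difference. Hist2h3c1 drew the most counts of the 12, at 53 over all 4 libraries against 33 for Hist1h3c. It was counted over 1825 bases against 480, and by mean TPM Hist1h3c stood highest, at 1.28 against 0.530 for Hist2h3c1.

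Hist1h4i (chromosome 13, 22040816 to 22041352, minus strand, 1 exon) was the most read H4 gene, with 48 and 58 counts in MK1 and 89 and 67 in MK2. Its level was 6.22 and 8.32 TPM in MK1 and 13.3 and 8.72 in MK2, and the groups were separated only narrowly. The difference was 0.66 (log2, SE 0.30, adjusted p = 0.106 by edgeR's quasi-likelihood test), 0.93 without MK2 replicate 2 (adjusted p = 0.0376) and 0.35 without MK2 replicate 1 (0.418). Hist4h4, the only gene at its site, had 20 and 28 counts in MK1 and 37 and 32 in MK2, a difference of 0.61 (log2, SE 0.34, adjusted p = 0.172 by edgeR's quasi-likelihood test). Hist1h4b had 6 and 3 counts against 9 and 6 (1.34, 0.741, 2.31 and 1.34 TPM), and Hist1h4d had 1 and 1 against 7 and 8 (0.223, 0.247, 1.80 and 1.79 TPM). The 13 H4 genes summed to 2.73 and 3.72 CPM in MK1 and 6.04 and 4.30 in MK2, a ratio of 1.60 (1.32 to 1.94).

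**Figure D2:**
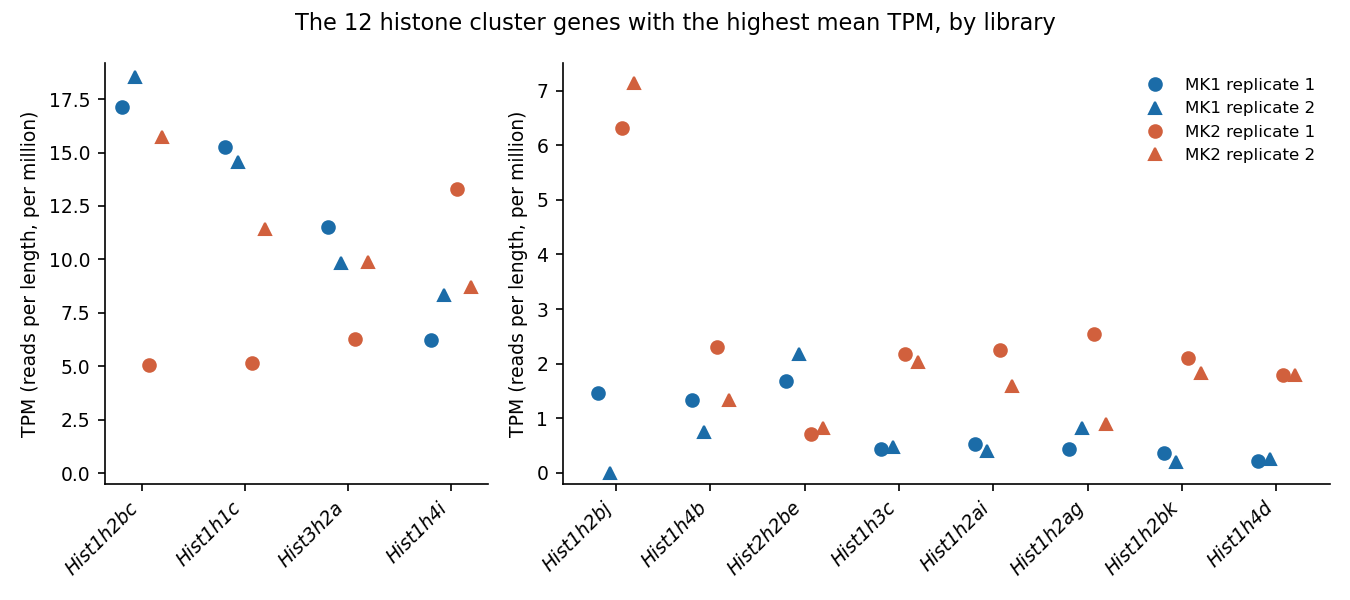
TPM in each culture (vertical axis) for the 12 histone cluster genes with the highest mean TPM over the 4 libraries, with MK1 and MK2 cultures as separate points. Hist1h2bc, Hist1h1c and Hist3h2a each have 1 MK2 culture well below the rest, and Hist1h2bj has its MK2 cultures at 6.31 and 7.15 TPM against 1.46 and 0 in MK1.

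Few members with a count kept their cultures apart in the lower direction, which did not hold for the 10 tested members. Of the members with a count, 39 drew 1 to 19 counts over all 4 libraries. Over the 57 members with a count, both MK2 cultures lay above both MK1 cultures in 26 genes and below in 6, against 33.3% and 36.2% of the 16776 genes with a count. The cultures overlapped in the other 25. The share above was 4 of the 10 tested members, with 4 below, against 39.5% and 40.9% of tested genes. At 0 in both MK1 cultures but counted in MK2 were 9 members, and the reverse held for 1. Most of these drew no more than the 3 counts that a 0 allows. The share over all genes was not taken, so these numbers show nothing particular to the members. Hist1h2bm, chosen after its values were seen, had no count in MK1 and 5 and 6 in MK2. Hist1h2ak, chosen in the same way, had 4 and 4 counts in MK2 and none in MK1.

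By cluster, Hist1 summed to 22.3 and 22.9 CPM in MK1 and 17.4 and 24.0 in MK2, with 44 of its 54 genes counted at all. Hist2, with 9 of 10 counted, summed to 3.09 and 3.46 CPM in MK1 and 1.75 and 2.12 in MK2, a ratio of 0.595 (0.464 to 0.760), and Hist2h2be made up 65.6% of its counts. Without Hist2h2be the log2 ratio of the Hist2 sum was 0.10. Hist3, with all 3 genes counted, had a ratio of 0.797 (0.703 to 0.903) that was almost wholly Hist3h2a, at 98.8% of the counts.

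**Figure D3:**
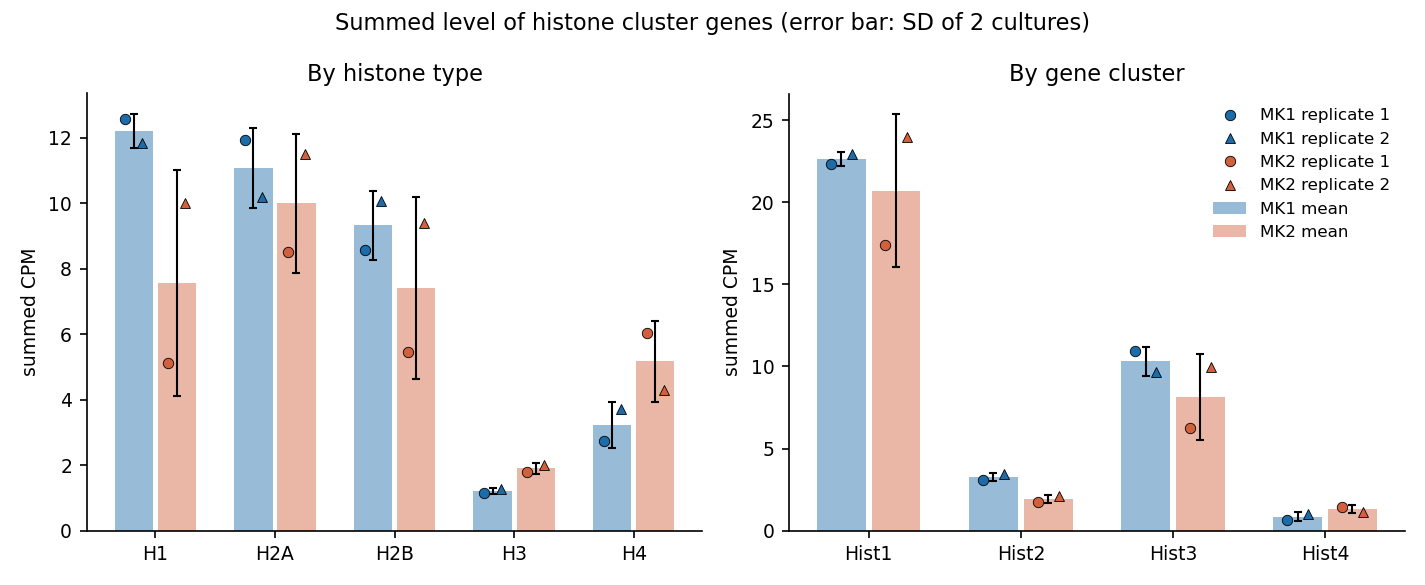
Summed CPM of histone cluster genes in each culture (vertical axis) by histone type and by cluster, with bars for the line mean, error bars for the SD of 2 cultures and a point for each culture. H1 sums to 12.6 and 11.8 CPM in MK1 and 5.13 and 10.02 in MK2, while H4 sums to 2.73 and 3.72 against 6.04 and 4.30.

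The genes were also divided by how far their annotated transcript runs past the stem-loop. This division was made after values had been seen, and the values are given without a test. Reads were counted over another annotation, which can stop short of that end. The transcript of Hist1h4d ran 770 bases past the stem-loop, but the gene was counted over 312 bases. Transcripts without a match were as short as 312 bases (Hist1h4k), so a missing match does not show a message without a stem-loop. The 25 genes whose transcript stopped under 300 bases past it summed to 1.28 and 1.53 CPM in MK1 and 5.09 and 3.99 in MK2, a ratio of 3.22 (2.49 to 4.20, counting error only). Without Hist1h2bj, the most counted of them, the ratio was 2.56 (1.93 to 3.41). The 18 genes whose transcript ran 300 bases or more past the stem-loop summed to 27.1 and 25.6 CPM in MK1 and 17.1 and 25.0 in MK2, a ratio of 0.805 (0.745 to 0.870), and MK2 replicate 1 was the culture that stood apart. The 25 genes with no match in the transcript used had a ratio of 0.714 (0.623 to 0.819), and 0.878 (0.698 to 1.10) without Hist1h2bc. These 3 groups held 20, 17 and 20 genes with a count. Both MK2 cultures lay above both MK1 cultures in 10, 6 and 10 of them and below in 1, 3 and 2. Among all genes with a count, 33.3% lay above and 36.2% below. The ratios under 1 describe the sums, which the abundant genes led.

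Counted length divided the genes in a similar way. The 16 genes of 1000 bases or more summed to 27.6 and 26.0 CPM in MK1 and 13.9 and 23.0 in MK2, a ratio of 0.698 (0.644 to 0.756). The 52 shorter genes had a ratio of 1.34 (1.20 to 1.49), and 2.42 (2.07 to 2.84) without Hist1h2bc.

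**Figure D4:**
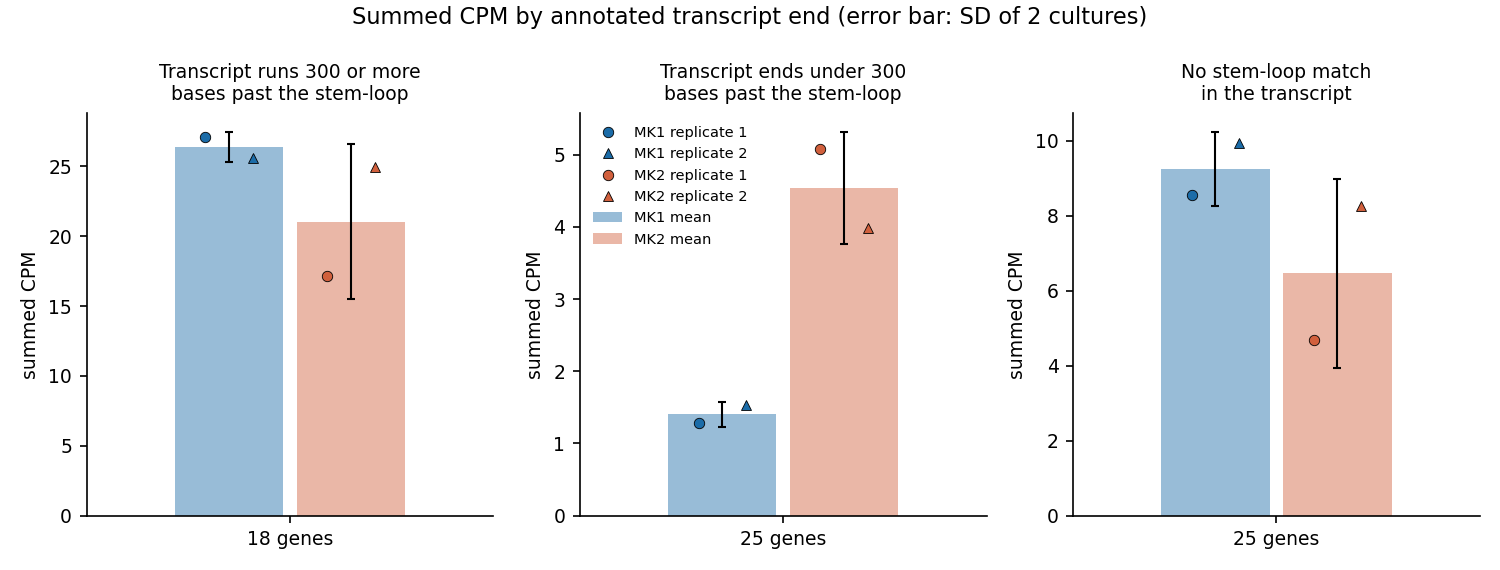
Summed CPM in each culture (vertical axis) of genes grouped by the distance their annotated transcript runs past the stem-loop, with bars for the line mean and error bars for the SD of 2 cultures, on an axis of its own scale in each panel. The 25 genes under 300 bases stand at 1.28 and 1.53 CPM in MK1 and 5.09 and 3.99 in MK2, and the 18 genes of 300 bases or more at 27.1 and 25.6 against 17.1 and 25.0.

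By position, the Hist1 cluster falls into 2 blocks. The first block (23 genes, chromosome 13, 21715763 to 22043610) summed to 2.57 and 2.68 CPM in MK1 and 7.11 and 5.47 in MK2, a ratio of 2.38 (1.96 to 2.91). Hist1h4i made up 54.1% of its counts, and without that gene the ratio was 4.33 (3.10 to 6.16). The second block (31 genes, 23531044 to 23934851) summed to 19.7 and 20.2 CPM in MK1 and 10.3 and 18.5 in MK2, so MK2 replicate 1 stood apart. Its ratio was 0.734 (0.669 to 0.804), and 0.907 (0.796 to 1.03) without Hist1h1c, which made up 51.5% of its counts. Both MK2 cultures lay above both MK1 cultures in 10 of 15 counted genes of the first block and 13 of 29 of the second. They lay below in 0 and 4. Among all genes with a count, 33.3% lay above and 36.2% below. Inside the Hist1 interval lay 52 genes of other families, of which 6 were tested, and 2 of these 6 were called lower, near the 28.6% of all tested genes. In 11 places an H2A and an H2B gene stood head to head within 500 bases, with the pseudogene Hist3h2bb-ps counted as an H2B gene. Hist1h2ag and Hist1h2bj, 280 bases apart, had 8 and 8 counts in MK1 and 21 and 69 in MK2. Hist1h2ac and Hist1h2bc, 239 bases apart, had 22 and 354 counts in MK1 and 4 and 210 in MK2. In 2 other pairs the H2A gene had too few counts to show a direction. Hist2h2ac and Hist2h2be, 276 bases apart, had 1 and 137 counts in MK1 and 4 and 54 in MK2. Hist1h2ah and Hist1h2bk, 334 bases apart, had 1 and 3 in MK1 and 0 and 20 in MK2. Hist1h2bl and Hist1h2ai, 278 bases apart, had 0 and 5 counts in MK1 and 3 and 20 in MK2. The partners Hist1h2ae and Hist1h2bg, 179 bases apart, did not move together, with 5 and 4 counts in MK1 and 16 and 3 in MK2. Whether partners changed together over the 11 pairs was not tested.

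Histone genes outside the clusters code for variants made through the cell cycle, mostly from polyadenylated messages. The 14 found in the table summed to 1677 and 1893 CPM in MK1 and 2079 and 1958 in MK2, where the 68 cluster genes summed to 37.0 and 37.1 in MK1 and 26.9 and 37.2 in MK2. Of 10 variant genes tested, 1 was called higher and 4 lower, against 25.9% and 28.6% of all tested genes, with a median difference of -0.20 (log2). H2afz, the variant H2A.Z found at promoters, rose from 244 and 301 CPM in MK1 to 568 and 426 in MK2 (log2 difference 0.86, SE 0.17, adjusted p = 0.00562 by edgeR's quasi-likelihood test). That call was lost without MK1 replicate 1 (adjusted p = 0.0660). H2afy2 and H2afy, both macroH2A genes, fell by 1.15 and 0.67 on the log2 scale, H2afv by 0.79 and H1f0, a linker histone of resting cells, by 0.62. The H1f0 call was lost without MK1 replicate 2 (adjusted p = 0.0751). H2afx, H3f3a and H3f3b were not called, at -0.30, 0.07 and 0.28.

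The genes that make, end and carry histones were mostly higher in MK2 or not called. Of 29 tested transcription and 3-prime processing genes, 14 were called higher and 0 lower by edgeR's quasi-likelihood test, with a median of 0.34 (log2). At an unadjusted p under 0.05 it was 18 and 0, and DESeq2 called 14 and 0. Cstf1, a cleavage factor subunit, rose by 1.48 on the log2 scale, Casp8ap2 by 0.97, the cap-binding Ncbp1 by 0.89 and Lsm11, a part of the U7 particle that cleaves histone messages, by 0.84. Slbp, whose protein binds the stem-loop, and Npat, a coactivator of histone genes, were not called (-0.12 and -0.07).

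Of 25 tested chaperone and import genes, 16 were called higher and 1 lower, with a median of 0.44. Nasp, an H3 and H4 chaperone, rose by 1.49 (log2), Mms22l by 1.32, Set by 1.32 and Chaf1b, a subunit of the replication-coupled assembly factor, by 1.14, while Cabin1 fell by 0.33. Of 32 S phase and DNA replication genes, 21 were called higher and 1 lower, with a median of 0.52. Mcm10, Mcm5 and Rfc3 rose by 1.43, 1.13 and 1.10 on the log2 scale, and Rrm1, a ribonucleotide reductase subunit, fell by 1.01. These shares stand beside 25.9% higher and 28.6% lower among all tested genes. Fewer genes of each of the 3 lists were called higher without MK1 replicate 1, and fewer chaperones without MK1 replicate 2. Over all genes, fewer were called higher in both of these fits as well.

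**Figure D5:**
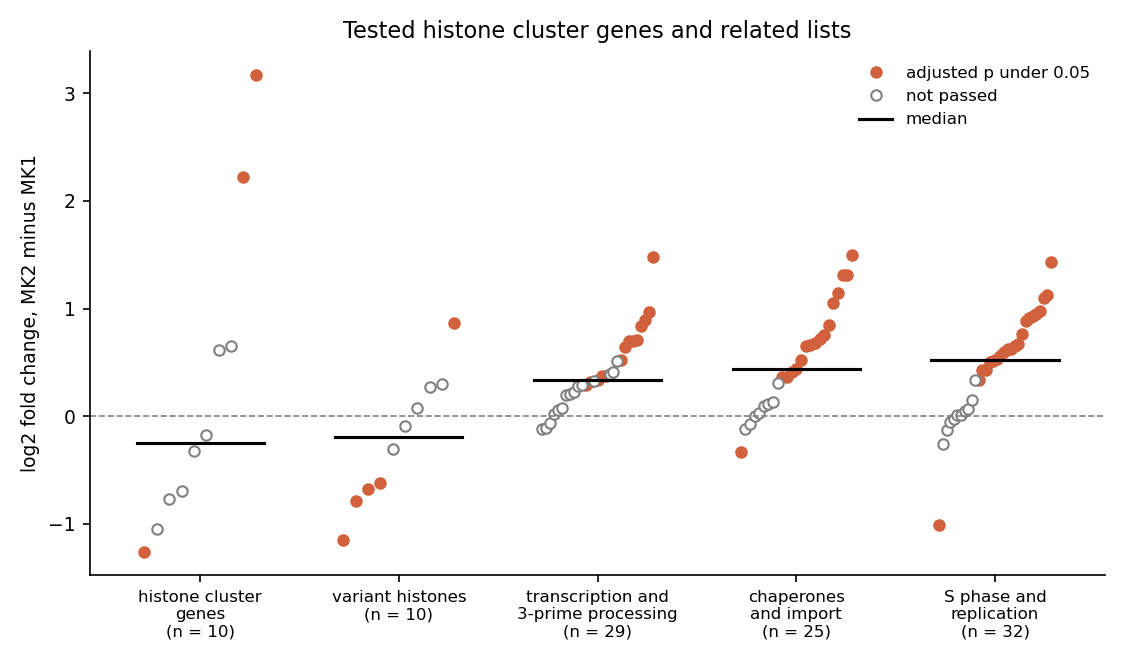
Log2 difference, MK2 against MK1 (vertical axis), for each tested gene of the variant histone, processing, chaperone and S phase lists and of the histone cluster genes, with called genes marked. The medians are -0.20, 0.34, 0.44 and 0.52 for the 4 related lists and -0.25 for the 10 tested cluster genes.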

How the data were processed

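The authors deposited raw read counts per gene, not normalised. Per the file headers, reads were assigned to exons of the UCSC mm10 annotation and summed by gene symbol with featureCounts 1.4.6-p4, with no option set for strand, read pairs, reads with several alignments or overlapping genes. Per the submitters' processing notes, the tools named are DESeq2 1.10.1, featureCounts 1.5.0, Bowtie2 2.2.6 and TopHat2 2.0.13, so the featureCounts versions differ. Sample titles gave the match of count columns to libraries, and no column lacked a sample. The command in the header names the alignments of the second line MKU, where the columns and titles say MK2.

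Counts of all 23420 genes were fitted with edgeR 4.0.16 in R 4.3.3 (filterByExpr with minimum count 10, TMM, quasi-likelihood F test, Benjamini-Hochberg at 0.05 over all tested genes, two-sided), and MK2 was compared with MK1 over 2 cultures of each. DESeq2 1.42.0 was an alternative. CPM used TMM-scaled libraries and TPM the deposited counted lengths. Ratios of summed counts carry exact (Clopper-Pearson) 95% intervals for counting error only. On simulated data for this comparison over 12479 genes, 87 of 100 genes changed by 2-fold and 100 of 100 changed by 4-fold were called, with 10 of 12279 unchanged genes. The changed genes were drawn only from genes above a minimum mean count, so these shares do not apply to members with few counts.

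Members, lists, tests and splits were chosen with earlier results of these data known. Named were the 12 members with the highest mean TPM, called members at 1 CPM or more with separate cultures, the other tested members, the testis-type members, and up to 4 called genes of each related list with a few fixed ones. Of the listed symbols, H3f3c and Ars2 were not found. Sequences came from GENCODE M21 (GRCm38, the assembly of mm10) and RefSeq GRCm38.p6.

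Replicate libraries differed by more than counting noise, with a median chi-square per gene of 2.87 in MK1 and 4.28 in MK2, so none was counted again.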

Additional observations from a re-analysis of the deposited data

How the results depend on the processing

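Over 1724 alternative values, 1551 kept their call or moved by less than the spread or 1.5 times, 92 lost a call, 30 gained one and 51 moved. Called values kept their sign (0 reversed), while medians and sums, which carry no call, changed sign in places given here. Members called higher numbered 7 with every gene of at least 1 count, 1 with at least 1 CPM in 2 libraries, 1 in DESeq2 and 0 in glmTreat beyond a log2 difference of 1, and 1 to 6 with a library left out (1 without MK1 replicate 1 or 2, 6 without MK2 replicate 2). Members called lower numbered 3 with every gene of at least 1 count and 0 in glmTreat, and 0 to 4 with a library left out (0 without MK1 replicate 2, 4 without MK2 replicate 2). The median over tested members was 0.66 with every gene of at least 1 count (57 members), 0.74 in DESeq2 (33) and 0.024 to 0.69 with a library left out, where 12 to 17 members were tested, more than the 10 of the reported median. Over all genes, 1527 to 3222 were called higher and 2189 to 3625 lower with a library left out, and 405 and 1257 in glmTreat. Variant histones called higher numbered 0 to 2 with a library left out, 2 with the length trend removed, 2 in DESeq2 and 0 in glmTreat, and those called lower 0 in glmTreat. Called higher with a library left out were 7 to 15 processing genes, 9 to 16 chaperones and 10 to 21 S phase genes, and in glmTreat 1, 2 and 1. Cabin1, the chaperone called lower, was lost with each library left out and in glmTreat, for a count of 0, and glmTreat called 0 S phase genes lower. With the most read member of each group left out, the log2 ratio of summed CPM was 0.31 for Hist1, 0.10 for Hist2 and -1.49 for Hist3. For H1, H2A, H2B and H3 it was 0.0018, 1.05, 0.21 and 1.04. Leaving out overlapped members moved no sum beyond its spread. The cause was not tested.

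Replicate numbers are not stated to pair cultures, and same-numbered deviations correlated at -0.15. With the replicate number as a block, 2733 genes were called higher and 3175 lower, members stayed at 2 higher and 1 lower with a median of -0.27, and chaperones called lower numbered 0, also with the length trend removed together with the block. With crossed numbers, an alternative added after seeing the data, 3568 and 3886 genes, 3 and 3 members and 2 variant histones (higher) were called. Depth limits most members: 50 of 68 had under 20 counts over all libraries, and 58 did not reach the read filter.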
